A study of Saccharomyces cerevisiae with 12 samples.

Results

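The comparison described here set budding yeast (Saccharomyces cerevisiae) grown in minimal medium against the same strain grown in rich YEPD medium, in the mock libraries of a study of NAD-capped RNA. Of 6607 identifiers in the deposited table, 5457 were compared: those with a mean of at least 10 normalized reads over the 6 mock libraries, leaving out 8 reading frames that lie inside the ribosomal DNA repeat. The strain in every library was BY4742, a haploid laboratory strain of mating type alpha that carries deletions of his3, leu2, lys2 and ura3. The minimal group was grown in yeast nitrogen base with a complete amino acid mixture and 2% dextrose, and the YEPD group in yeast extract and peptone with 2% dextrose, both to mid-log phase at an OD600 near 0.5. In the capture method, the enzyme ADP-ribosyl cyclase (ADPRC) swaps nicotinamide on the capping NAD with an alkyne, which is then biotinylated and bound to streptavidin beads. All 6 mock libraries went through the same alkyne, biotin and bead steps without the enzyme, so the values are levels among RNA that stayed on the beads in its absence. There were 3 minimal mock and 3 YEPD mock libraries, and the labels do not say whether replicates came from separate cultures, so the p-values measure the spread between libraries. Another 6 libraries, 3 for each medium, were made with the enzyme.

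YEPD is an undefined mixture of peptides, nucleosides, lipids, vitamins and salts, whereas the minimal medium is a defined one in which most cofactors and lipid precursors must be made or are present at fixed amounts. Yeast senses such supplies through separate regulons. Zap1 turns on zinc uptake, Ino2 and Ino4 turn on phospholipid synthesis when inositol is scarce, Aft1 turns on iron uptake, Met4 turns on sulfur assimilation and Pho4 turns on phosphate uptake.

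The minimal mock libraries held 3246900, 3937618 and 3358689 reads, and the YEPD mock libraries 13820148, 13531236 and 11700161. RNA was not depleted of ribosomal RNA, and frames of the ribosomal DNA repeat took 52.9% ± 2.02 of reads in minimal and 79.7% ± 1.12 in YEPD (SD, n = 3 each, two-sided exact permutation p = 0.1, the smallest that 3 against 3 allows). Outside them 1515824 to 1941643 reads remained in minimal and 2238485 to 2949728 in YEPD. The frames on the strand opposite to the ribosomal RNA held 0.0365% ± 0.0096 of reads in minimal and 61.1% ± 1.15 in YEPD. The sources used here do not say whether counting used strand, and a difference in counting between media cannot be told apart from a difference between media. Levels are given in normalized reads after rescaling the 6 libraries to each other, and a log2 difference is minimal over YEPD on the log2(value + 1) scale.

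Most marker genes matched the strain labels in every library. LEU2, LYS2 and URA3 were at 0 in all 6 libraries, where 3 reads would be 4.54 to 5.76 normalized reads in minimal and 2.64 to 3.65 in YEPD. HIS3, whose deletion in this strain is internal, had 113, 115 and 95.5 normalized reads in minimal and 85.3, 115 and 112 in YEPD. Of the a-cell markers, MFA1, MFA2, AGA2 and ASG7 stayed at or below 4.87 in each library, BAR1 at or below 16.7 and STE2 at or below 14.6. STE6 was higher, with 38.4, 48.4 and 47.7 in minimal and 72.1, 63.0 and 62.1 in YEPD. HMRA2 was higher still, with 128.7, 101.4 and 116.5 in minimal and 152.1, 135.4 and 129.1 in YEPD, while HMRA1 was at 0 throughout. Whether HMRA2 shares reads with other mating-type genes was not tested. The alpha-cell pheromone gene MF(ALPHA)1 had 2767, 2412 and 2635 in minimal and 2557, 2801 and 3086 in YEPD.

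Across all 5457 genes, 1065 (19.5%) were higher in minimal and 936 (17.2%) were lower at an adjusted p under 0.05 (limma, two-sided, Benjamini-Hochberg), 36.7% in either direction. Differences of over 2-fold were called for 207 genes (3.79%) higher and 210 (3.85%) lower, and the values of the 2 media did not overlap for 2561 genes (46.9%). Of the called genes 53.2% were higher, a share that fell to 30.4% when every library was set to the same total and to 25.6% when the deposited values were not rescaled. Those settings moved the median log2 difference of all genes to -0.16 and -0.20, against -0.02 in the comparison used here. At the same total 740 of the 5457 genes were higher and 1692 lower, and without rescaling 669 and 1949. Counts of the lists below under those settings are to be read beside these. With all 12 libraries in the model 605 genes were higher and 502 lower. That fit takes its spread from the libraries made with the enzyme too. Among them YEPD ADPRC replicate 2 stood apart from its group, as described below. Its part in the counts and adjusted p-values given for all 12 libraries was not tested. One frame next to the ribosomal DNA, YLR162W, is counted among the tested genes and weighs on totals, with 125, 135 and 68.7 normalized reads in minimal and 145700, 139900 and 162400 in YEPD.

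The largest higher values belonged to genes with an annotated gene or, by systematic name, an unannotated identifier on the opposite strand. All 12 genes that led the higher list had a neighbour of the second kind, a table identifier that RefSeq does not annotate. It was found by name alone, from the same chromosome arm, a number within 1 and the other strand letter. Positions and overlaps of these unmatched identifiers were not checked, here or below. HYP2, which encodes the translation factor eIF5A, had 3049, 3126 and 3107 normalized reads in minimal and was listed at 0 in all 3 YEPD libraries. RPL43A, a protein of the large ribosomal subunit, had 2957, 2616 and 2895 in minimal and 10.6, 13.2 and 13.4 in YEPD. Whether the YEPD values of both come from counting or from the medium was not tested. RPL36B, RPL22A, RPL28, RPL33A and RPL39 were in the same list. Of 825 genes with such a neighbour, 334 were higher and 98 lower, with a median log2 difference of 0.17. Of 71 genes that overlap an annotated gene on the opposite strand, 33 were higher and 19 lower. Of the 4454 genes with neither and no other overlap, 674 (15.1%) were higher and 785 (17.6%) lower, with a median of -0.05, and those are called clear genes below. Rescaled on themselves alone, the clear genes gave 730 higher and 672 lower, with a median of -0.02. Which direction is more frequent among them thus depends on the scaling. Among genes over 8-fold higher, 3 of 39 were clear, against 53 of 87 genes over 8-fold lower. Reads of an antisense RNA without an annotation could still enter a clear gene if strand was not used, which was not tested.

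**Figure D1:**
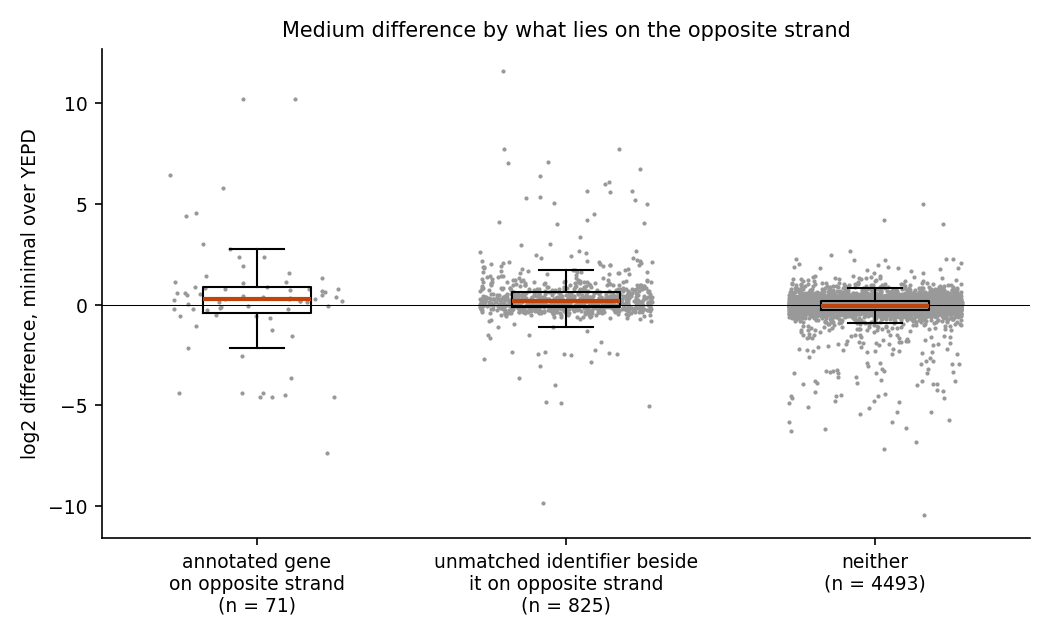
Log2 difference of each tested gene, minimal over YEPD (vertical axis), for genes that overlap an annotated gene on the opposite strand, genes with an unmatched identifier beside them on that strand by systematic name, and genes with neither. Each point is a gene, boxes span the quartiles with the median in red, and whiskers reach at most 1.5 times the box height; the group medians were 0.30, 0.17 and -0.05, and most points above 5 lie in the middle group.

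Genes of zinc supply held the largest difference among the clear genes that were higher in minimal. ZRT1, the high-affinity zinc transporter of the plasma membrane, had 2555, 2604 and 2633 normalized reads in minimal and 79.1, 83.7 and 75.5 in YEPD. Its log2 difference was 5.01 (SE 0.07, adjusted p = 4.85e-26 by limma), and no minimal library came near any YEPD library. ZPS1, a cell wall protein induced by low zinc, had 338, 273 and 317 in minimal and 16.7, 16.9 and 20.7 in YEPD, a log2 difference of 4.02. ZAP1, the zinc-responsive activator, had 277, 259 and 218 in minimal and 109, 139 and 127 in YEPD, a log2 difference of 1.00 (adjusted p = 1.69e-07). COT1, which moves zinc and cobalt into the vacuole, rose by 1.16, the low-affinity transporter ZRT2 by 0.85, the vacuolar exporter ZRT3 by 0.75 and the alcohol dehydrogenase ADH4 by 0.76. ZRC1, another vacuolar zinc importer, had 626, 699 and 691 in minimal and 708, 589 and 670 in YEPD, and its groups overlapped (adjusted p = 0.725). Of 19 tested genes in the zinc list, 9 were higher and none lower, with a median log2 difference of 0.20, beside 19.5% higher and 17.2% lower over all genes. Among its 17 clear genes 8 were higher. The highest value in the list, 5.2, equals that given for INO1 below, so the zinc and phospholipid lists may both hold that gene.

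The phospholipid pathway was higher in minimal at most of its steps. INO1, which makes inositol phosphate from glucose phosphate, had 767, 663 and 827 normalized reads in minimal and 20.2, 19.7 and 18.3 in YEPD, a log2 difference of 5.20, although INO1 has an unmatched identifier beside it on the opposite strand. OPI3, a clear gene for the last methyltransferase on the way to phosphatidylcholine, had 1180, 1070 and 1090 in minimal and 51.9, 52.6 and 77.9 in YEPD (log2 difference 4.20, SE 0.12, adjusted p = 1.88e-16). ITR1, the major inositol transporter, had 3858, 4001 and 3790 in minimal and 843, 831 and 774 in YEPD, a log2 difference of 2.25. Its paralogue ITR2 had 352, 330 and 401 in minimal and 354, 329 and 397 in YEPD, a log2 difference of 0.0025 (adjusted p = 0.987).

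Further along the same route, CHO1, the phosphatidylserine synthase, had 448, 389 and 441 normalized reads in minimal and 107, 122 and 132 in YEPD, a log2 difference of 1.82. CHO2, the first methyltransferase of phosphatidylethanolamine, rose by 1.03 and the choline transporter HNM1 by 1.27. CKI1, CPT1, EPT1 and EKI1 of the Kennedy pathway, which builds phospholipids from choline and ethanolamine, rose by 0.89, 0.84, 0.80 and 0.43. Of the regulators, the activator genes INO2 and INO4 rose by 0.91 and 0.63. For INO4 the adjusted p was 0.0251 by limma, and the call ended without minimal replicate 1, YEPD replicate 1 or YEPD replicate 2, with DESeq2, with all 12 libraries, at the same total, without rescaling and with the length trend removed (adjusted p up to 0.118). The EKI1 call ended without minimal replicate 2, YEPD replicate 1 or YEPD replicate 2, with DESeq2, with all 12 libraries, at the same total and without rescaling (adjusted p up to 0.172). The repressor gene OPI1 rose by 1.44 and PSD1, the mitochondrial phosphatidylserine decarboxylase, by 1.78, both with an unmatched identifier on the opposite strand. Of 27 tested genes in the list 18 were higher and none lower, with a median of 0.54, and among its 23 clear genes 14 were higher.

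Methionine and the methyl cycle were split between its enzymes and its sulfur scavengers. MET6, the methionine synthase, had 12290, 12960 and 12050 normalized reads in minimal and 2756, 2610 and 2665 in YEPD, a log2 difference of 2.21 (SE 0.05, adjusted p = 1.4e-21 by limma). SAM2, which makes S-adenosylmethionine, had 2010, 2083 and 1999 in minimal and 344, 298 and 308 in YEPD, a log2 difference of 2.68. Its paralogue SAM1 rose by 0.91, and SAH1, which clears the product of methyl transfer, by 1.40. MET13, which supplies the methyl group from folate, rose by 2.06, and STR3, which makes homocysteine from cystathionine, by 2.23. The methionine permeases MUP1 and MUP3 rose by 1.34 and 1.40, and the S-adenosylmethionine permease SAM3 by 1.74. MET3 and MET14, the first enzymes of sulfate activation, rose by less, 0.93 and 0.84.

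The other direction held in the same list. SUL1, a high-affinity sulfate permease, had 0, 0 and 1.91 normalized reads in minimal and 88.8, 66.7 and 81.6 in YEPD, while its paralogue SUL2 rose by 0.56. JLP1 and BDS1, which release sulfite or sulfate from sulfonates and sulfate esters, fell by 2.45 and 0.77. The sulfonate and sulfate transporter SOA1 fell by 1.82, the cysteine transporter YCT1 by 0.66 and the regulator MET32 by 1.38. The BDS1 and YCT1 calls ended without YEPD replicate 2, and that of YCT1 also without minimal replicate 2 or YEPD replicate 3 (adjusted p up to 0.103 and 0.133). Both also ended with DESeq2, and that of YCT1 without trend and robust estimation. Of 39 tested genes, 24 were higher and 6 lower, with a median of 0.52, and of 35 clear genes 20 were higher and 6 lower. Without rescaling 10 of the 39 were lower, and with a filter at a mean of at least 50 none of 28 was.

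Iron uptake genes were higher in part. FIT2, a cell wall mannoprotein that holds siderophores, had 144, 127 and 136 normalized reads in minimal and 22.0, 24.4 and 24.4 in YEPD, a log2 difference of 2.47 (adjusted p = 1.18e-11). SIT1, a siderophore transporter, had 240, 242 and 170 in minimal and 48.4, 57.3 and 53.6 in YEPD, a log2 difference of 2.00. FTR1 and FET3 form the high-affinity iron permease and its oxidase, and rose by 1.69 and 1.64, FET3 with an unmatched identifier on the opposite strand. TIS11, which destabilises mRNAs of iron-using proteins, rose by 1.77, ENB1 by 1.36, FIT3 by 1.34 and ARN1 by 0.80. Of 8 tested FRE reductase genes 3 were lower: FRE5 had 21.1, 16.7 and 17.2 in minimal and 234, 220 and 248 in YEPD, FRE4 fell by 1.68, and FRE7, which responds to copper, fell by 3.99. FRE6 rose by 0.41. FRE1, FRE2, FRE3 and FRE8 did not pass the test, with log2 differences of -0.30, 0.27, -0.09 and -0.13. Of 35 tested genes 18 were higher and 4 lower, with a median of 0.41. Among the 29 clear ones 12 were higher and 4 lower, with a median of 0.27.

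**Figure D2:**
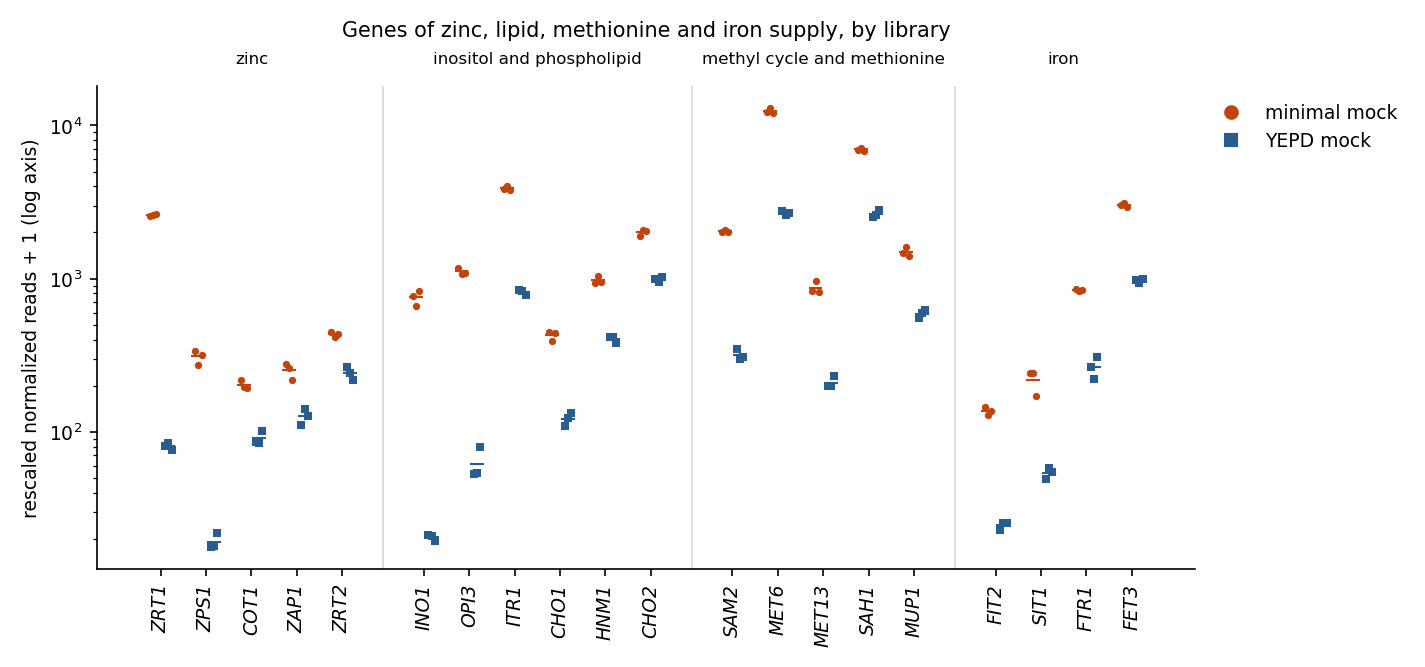
Rescaled normalized reads plus 1 on a log axis for 20 genes of zinc, inositol and phospholipid, methionine and iron supply in each of the 3 minimal mock (circles) and 3 YEPD mock (squares) libraries, with short lines at the group means. In each of the 20 genes all minimal libraries lie above all YEPD libraries, with the widest gaps for ZRT1 at 2555 to 2633 against 75.5 to 83.7 and for INO1 at 663 to 827 against 18.3 to 20.2.

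Copper genes did not move together. SOD1, the copper and zinc superoxide dismutase, had 2140, 2112 and 2041 normalized reads in minimal and 675, 695 and 774 in YEPD, a log2 difference of 1.55. CTR1, the high-affinity copper transporter, had 17.3, 27.3 and 32.5 in minimal and 126, 117 and 123 in YEPD, a log2 difference of -2.25 with an unmatched identifier on the opposite strand. CUP1-1 and CUP1-2, the 2 annotated copies of the metallothionein gene, share reads and overlap an annotated gene on the opposite strand. CUP1-1 had 3241, 3023 and 3198 in minimal and 4.40, 0 and 2.44 in YEPD.

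Phosphate genes were lower in minimal. PHO84, the high-affinity phosphate transporter, had 473, 435 and 462 normalized reads in minimal and 2649, 2497 and 2896 in YEPD, a log2 difference of -2.55 (SE 0.07, adjusted p = 6.53e-21 by limma), and RefSeq annotates a transcript on the opposite strand over the whole gene. VTC3 and VTC4, subunits of the complex that makes and transports polyphosphate, were clear genes. VTC3 had 442, 365 and 388 in minimal and 1269, 1187 and 1204 in YEPD. VTC4 had 555, 607 and 502 in minimal and 1281, 1248 and 1316 in YEPD. PHO81, the inhibitor of the Pho80-Pho85 kinase, fell by 1.27, the acid phosphatase genes PHO5 and PHO12 by 1.09 and 1.62, VTC1 by 0.94 and VTC2 by 0.44. SPL2, which restrains low-affinity uptake, had 11.5, 10.6 and 15.3 in minimal and 50.1, 63.9 and 93.8 in YEPD. Of 27 tested genes 17 were lower and 2 higher, with a median log2 difference of -0.45. The 2 higher genes were PHO85, the kinase, at 0.53 and the activator PHO4 at 0.54, the second with an unmatched identifier on the opposite strand. The PHO4 call ended without trend and robust estimation (adjusted p = 0.0659 by limma).

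Genes for sugar uptake were split by transporter. HXT2, a high-affinity glucose transporter, had 229, 235 and 227 normalized reads in minimal and 1009, 1048 and 1146 in YEPD, a log2 difference of -2.21 (adjusted p = 2.15e-18). The low-affinity transporter gene HXT3 had 4173, 4507 and 4249 in minimal and 2377, 2505 and 2764 in YEPD, a log2 difference of 0.76, and HXT4 rose by 0.91. HXT1 rose by 1.22 with an unmatched identifier on the opposite strand, and MIG2, a glucose repressor, rose by 0.86. HXT13, HXT15, HXT16 and HXT17 are near-identical copies whose reads may be split among them. HXT13 had 1.92, 0 and 0 in minimal and 36.9, 42.3 and 35.3 in YEPD. Of 21 tested genes in the hexose transporter list 6 were higher and 9 lower. A gene near 0 in minimal could pass the filter only through YEPD. With a filter at a mean of at least 50, 6 of 13 were higher and 2 lower, beside 962 higher and 796 lower of all 4296 genes. CAT8, an activator of gluconeogenesis, had 34.6, 31.8 and 30.6 in minimal and 129, 118 and 141 in YEPD. JEN1, the lactate transporter, had 1.92, 7.57 and 11.5 in minimal and 63.3, 69.6 and 53.6 in YEPD. FBP1, a gluconeogenic enzyme, and ACS1, an acetate-activating enzyme, fell by 3.29 and 1.05, and the beta-oxidation genes POX1 and POT1 by 2.79 and 3.60. Their minimal values lay at or under 17.3, so the size of those differences rests on few reads.

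Genes for other nitrogen sources were among the larger lower values. PTR2, the di- and tripeptide transporter, had 165, 135 and 164 normalized reads in minimal and 640, 625 and 705 in YEPD, a log2 difference of -2.08. DUR12, the urea amidolyase, had 217, 200 and 227 in minimal and 836, 806 and 784 in YEPD, a log2 difference of -1.91. ARO10, a decarboxylase of aromatic amino acid breakdown, had 1.92, 3.03 and 5.73 in minimal and 201, 273 and 259 in YEPD. ARO9, the transaminase before it, had 15.4, 25.7 and 21.0 in minimal and 181, 182 and 161 in YEPD, with an unmatched identifier on the opposite strand. Over the list of nitrogen catabolite and peptide uptake genes, 7 of 34 were higher and 6 lower, near the shares over all genes. At the same total 5 were higher and 10 lower, and without rescaling 4 and 11, where 1692 and 1949 of all 5457 genes were lower.

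Amino acid synthesis genes had no common direction. In the leucine branch LEU1, isopropylmalate isomerase, had 7103, 7247 and 6973 normalized reads in minimal and 2934, 2819 and 2893 in YEPD, a log2 difference of 1.30. BAT1, the mitochondrial branched-chain transaminase, rose by 0.96, the carrier gene OAC1 by 1.05, ILV3 by 0.78 and ILV5 by 0.72, the last with an adjusted p of 0.0567 when all 12 libraries entered the model. Of 12 tested genes of this group 8 were higher and 1 lower, and with all 12 libraries 5 and 0. Of 21 arginine genes 6 were higher and 4 lower, with a median of 0.06. The lower count was 2 without YEPD replicate 3 and with DESeq2, and 7 at the same total and without rescaling. ARG3, ornithine carbamoyltransferase, had 115, 106 and 89.8 in minimal and 25.5, 25.4 and 13.4 in YEPD, and ARG1 rose by 1.06. Of 16 aromatic amino acid genes 6 were higher and 3 lower, but 4 and 8 at the same total and without rescaling. Under those settings 1692 and 1949 of all 5457 genes were lower, the background for each list of this paragraph. In the list for glutamate, serine, threonine and asparagine 10 of 28 were higher and 6 lower. That list had 6 higher and 10 lower at the same total, 4 and 10 without rescaling, 5 and 7 after quantile normalization, 5 and 3 with all 12 libraries, and 6 and 4 without trend and robust estimation. In lysine synthesis none of 8 was higher and 2 were lower, LYS20 and LYS1. The LYS1 call ended without minimal replicate 1 or 2 or YEPD replicate 2 or 3 (adjusted p up to 0.109 by limma), and with DESeq2. At the same total 4 of the 8 were lower, and without rescaling 5. In histidine synthesis 1 of 7 was higher. Among amino acid permeases 11 of 24 were higher and none lower, led by SAM3, MUP3, MUP1 and DIP5, the dicarboxylic amino acid permease, which rose by 1.08. At the same total and without rescaling 8 permease genes were higher and 3 lower.

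**Figure D3:**
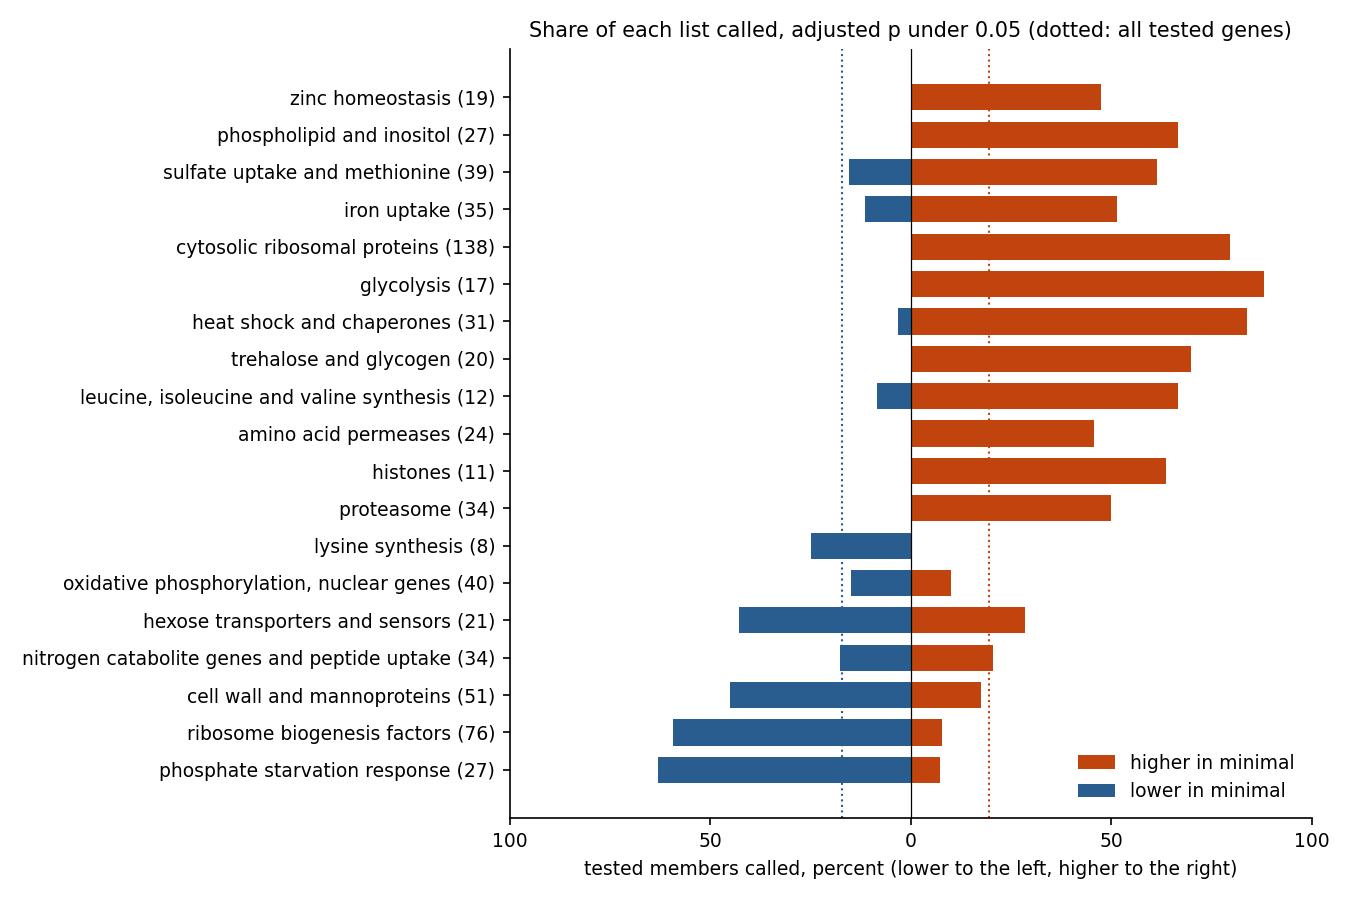
Share of the tested members of 19 gene lists called higher (to the right) or lower (to the left) in minimal at an adjusted p under 0.05, in percent, with the number tested in brackets. Dotted lines mark the same shares over all tested genes, 19.5% higher and 17.2% lower; glycolysis, heat shock and ribosomal protein lists lie farthest to the right, and the phosphate and ribosome biogenesis lists farthest to the left.

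Genes of the ribosome and of its assembly differed in opposite directions. Of 138 cytosolic ribosomal protein genes 110 were higher in minimal and none lower, with a median log2 difference of 0.42. Among the 109 clear ones 83 were higher and none lower, with a median of 0.37. RPL3 had 10790, 10660 and 11530 normalized reads in minimal and 7235, 7552 and 8474 in YEPD, a log2 difference of 0.51. RPL30 had 2058, 2050 and 2009 in minimal and 887, 834 and 949 in YEPD, a log2 difference of 1.20. Of 76 ribosome biogenesis factors 45 were lower and 6 higher, with a median of -0.30, and among the 65 clear ones 44 were lower and none higher. UTP20, of the complex that processes the small subunit RNA, had 1207, 1320 and 1298 in minimal and 2113, 1981 and 1904 in YEPD, a log2 difference of -0.65. RPA190, the largest subunit of RNA polymerase I, fell by 0.49. The 6 biogenesis genes that were higher, NSR1 and NOP56 among them, all lay outside the clear set.

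The median of the ribosomal protein list stayed positive under every scaling tried, between 0.16 and 0.42, but 11 of its genes were lower after quantile normalization, 10 without rescaling and 8 at the same total. With all 12 libraries in the model, 36 were called higher, and after quantile normalization 70. RPL3 lost its call after quantile normalization (adjusted p = 0.101 by limma), and UTP20 with all 12 libraries (adjusted p = 0.0814). Under the same scalings the biogenesis median stayed between -0.48 and -0.30, and without minimal replicate 1 it was -0.28. With all 12 libraries 26 of the biogenesis genes were lower.

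**Figure D4:**
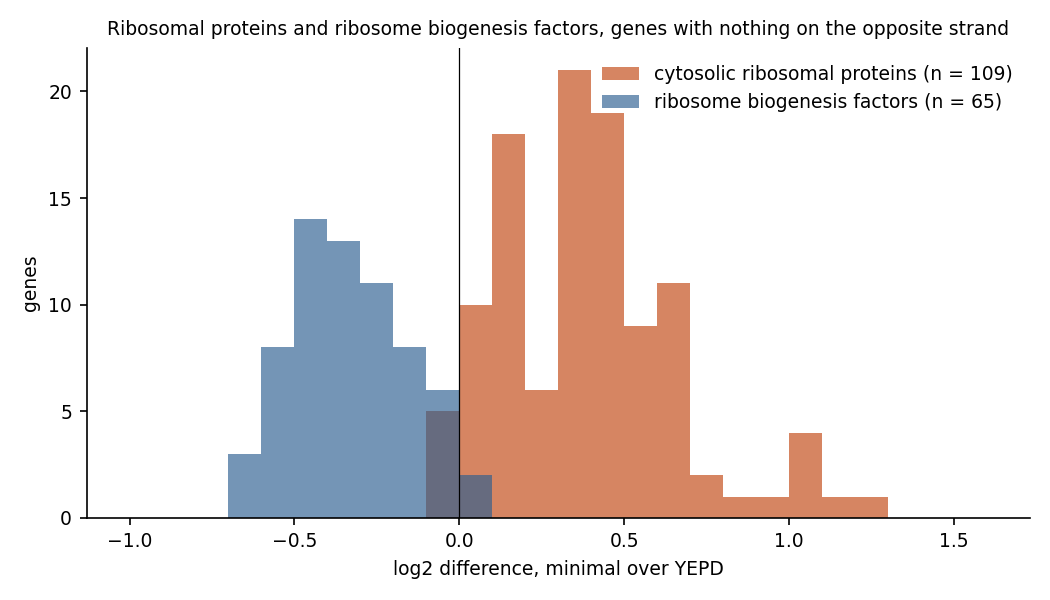
Number of genes by log2 difference, minimal over YEPD, in bins of 0.1, for the 109 clear cytosolic ribosomal protein genes (orange) and the 65 clear ribosome biogenesis factors (blue). The ribosomal protein genes centre on a median of 0.37 and the biogenesis factors on -0.34, and the distributions overlap between -0.1 and 0.1.

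Glycolysis, storage carbohydrate and chaperone genes were mostly higher by modest amounts. Of 17 glycolytic genes 15 were higher and none lower, with a median of 0.55, but 6 were higher with all 12 libraries in the model. Among the 13 clear ones 11 were higher and none lower, with a median of 0.33. None of the 3 genes called over 2-fold higher was clear. TDH3, glyceraldehyde-phosphate dehydrogenase, had 85310, 83450 and 84290 normalized reads in minimal and 57070, 60990 and 63630 in YEPD, a log2 difference of 0.48. ENO2, an enolase, rose by 0.76. With all 12 libraries in the model neither call held (adjusted p = 0.291 for TDH3 and 0.0507 for ENO2 by limma). TDH3 also had the highest level per kb of gene length in minimal, 84430 normalized reads per kb, against 60620 in YEPD, where it came after the rDNA-adjacent frame YLR162W. CDC19, pyruvate kinase, had 47350, 47990 and 47810 in minimal and 12880, 12910 and 13250 in YEPD, with an unmatched identifier on the opposite strand.

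PGM2, phosphoglucomutase, had 732, 802 and 726 normalized reads in minimal and 217, 192 and 197 in YEPD, a log2 difference of 1.89 (adjusted p = 3.5e-16). GSY1, a glycogen synthase, rose by 1.22 and TPS2, of trehalose synthesis, by 0.45, and 14 of 20 genes of trehalose and glycogen were higher and none lower. Of 31 heat shock and chaperone genes 26 were higher and 1 lower, with a median of 0.32. HSP60, the mitochondrial chaperonin, had 3781, 3950 and 4063 in minimal and 2366, 2355 and 2493 in YEPD. At the same total, without rescaling and after quantile normalization, 16, 14 and 15 of the chaperone genes were higher and 2, 2 and 4 lower. With all 12 libraries 12 were higher, and without trend and robust estimation 17. Of 34 stress genes of the Msn2 and Msn4 activators 18 were higher and 6 lower. The lower count was 3 without minimal replicate 3 or YEPD replicate 1, 2 or 3, and also with DESeq2, with all 12 libraries, without trend and robust estimation and with the length trend removed. HSP12, a membrane-protecting protein, rose by 1.31 and the catalase gene CTT1 by 1.03, and GRE1 fell by 1.93.

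Among other lists, 7 of 11 histone genes and 17 of 34 proteasome genes were higher and none lower, with medians of 0.49 and 0.24. With all 12 libraries in the model those counts were 2 and 3. The proteasome list had 8 higher and 3 lower at the same total and without rescaling, 9 higher without trend and robust estimation and 11 with DESeq2. Nuclear genes of oxidative phosphorylation were near the background or below it, 4 of 40 higher and 6 lower. At the same total or with the length trend removed 12 were lower, and without rescaling 16. Over all genes 1692 of 5457 were lower at the same total, 757 of 5389 with the length trend removed and 1949 of 5457 without rescaling. In NAD metabolism 8 of 28 were higher and 1 lower, with a median of 0.09 that turned to -0.05 at the same total and -0.09 without rescaling. At the same total 5 of them were lower and without rescaling 6, and with all 12 libraries 5 were higher. Of the 21 clear genes of NAD metabolism 4 were higher and 1 lower, beside 15.1% and 17.6% of all clear genes. PNC1, the nicotinamidase, had 709, 695 and 787 normalized reads in minimal and 492, 471 and 470 in YEPD, and BNA6, of synthesis from tryptophan, rose by 0.62. In the oxidant list 15 of 32 were higher and 2 lower (8 and 2 with all 12 libraries), and 10 and 2 of its 26 clear genes. In the pentose phosphate list ZWF1, the first enzyme of that pathway, rose by 0.95.

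Several genes of mating were lower in minimal. Of 9 tested alpha-cell genes 4 were lower and none higher, with a median of -0.20, and 7 were lower at the same total and without rescaling. AGA1, the anchor of the agglutinin of a cells, had 384, 401 and 319 normalized reads in minimal and 1811, 1907 and 1746 in YEPD, a log2 difference of -2.31 (SE 0.08, adjusted p = 1.53e-18 by limma). SAG1, the agglutinin of alpha cells, had 1212, 1266 and 1081 in minimal and 3350, 3334 and 3302 in YEPD. FIG2, a cell wall adhesin of mating cells, had 257, 235 and 208 in minimal and 718, 763 and 725 in YEPD. FUS1, needed for cell fusion, had 32.7, 27.3 and 24.8 in minimal and 102, 108 and 95.0 in YEPD. MF(ALPHA)2, the minor pheromone gene, had 160, 174 and 155 in minimal and 474, 516 and 443 in YEPD, while for MF(ALPHA)1 the groups overlapped. SST2, which dampens the pheromone signal, fell by 1.14, the arrest factor gene FAR1 by 0.80 and the activator STE12 by 0.51. A list of 22 pheromone-induced genes was drawn up after those values had been seen, so its counts add no support to them. Of its 19 tested members 16 were lower and none higher, with a median of -0.95, beside 17.2% lower over all genes. A member near 0 in minimal could pass the filter on low values only through YEPD.

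Cell wall genes were lower more often than higher, 23 against 9 of 51. Without rescaling 33 were lower and 3 higher, after quantile normalization 31 and 4, and with all 12 libraries 8 and 3. Over all 5457 genes those settings gave 1949 lower and 669 higher, 1081 and 938, and 502 and 605. FLO1, a flocculin, had 129, 83.3 and 120 normalized reads in minimal and 165, 233 and 220 in YEPD, and shares sequence with other FLO genes. CWP1, a mannoprotein, had 1328, 1297 and 1415 in minimal and 518, 598 and 708 in YEPD, a log2 difference of 1.16. The weak acid exporter gene PDR12 had 732, 808 and 668 in minimal and 1523, 1472 and 1539 in YEPD.

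**Figure D5:**
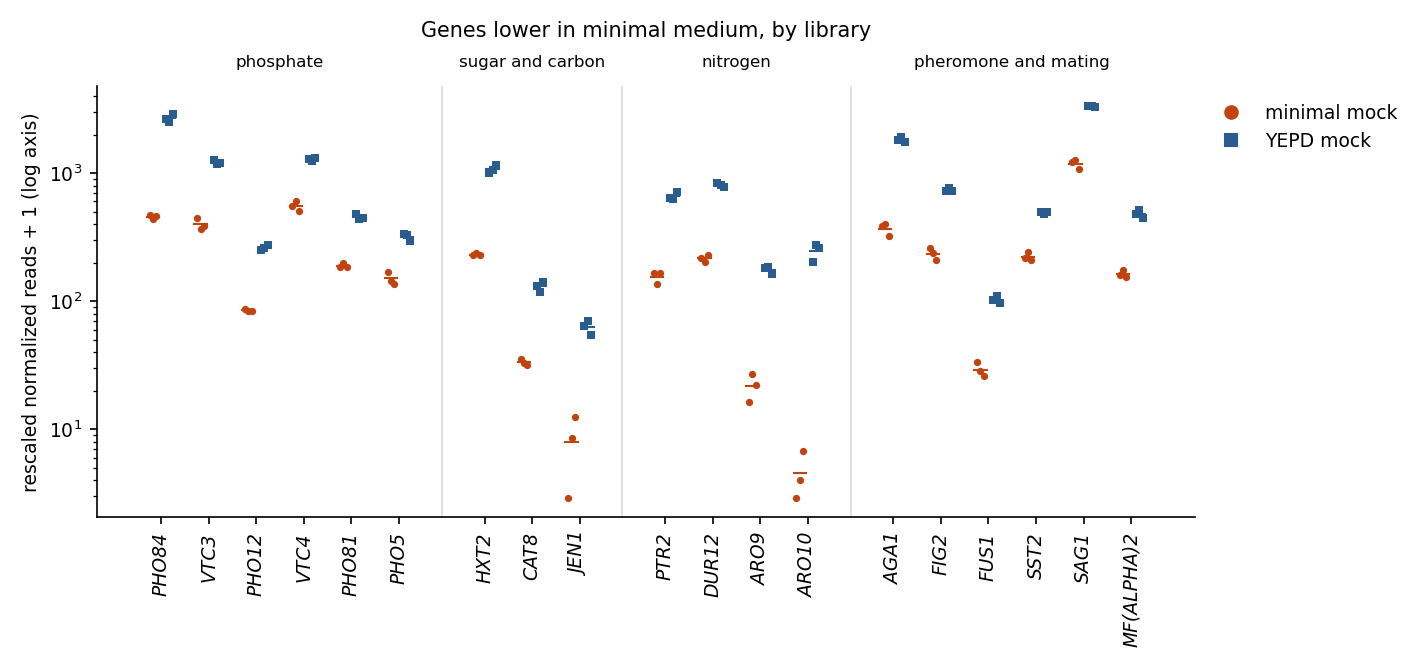
Rescaled normalized reads plus 1 on a log axis for 19 genes of phosphate, sugar and carbon, nitrogen and mating in each of the 3 minimal mock (circles) and 3 YEPD mock (squares) libraries, with short lines at the group means. In each gene all minimal libraries lie below all YEPD libraries, with the widest gap for ARO10 at 1.92 to 5.73 against 201 to 273.

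The largest lower values came from genes with next to no reads in minimal. SPO75, a gene of spore formation, was at 0 in all 3 minimal libraries and had 69.5, 77.1 and 84.0 normalized reads in YEPD, which makes it at least 14.4-fold lower when 3 reads per library are allowed. ATR2, a paralogue of the boron exporter gene ATR1, had 1.92, 3.03 and 0 in minimal and 169, 161 and 150 in YEPD. AZR1, an azole resistance transporter, had 1.92, 0 and 0 in minimal and 70.4, 73.3 and 77.9 in YEPD. CSS1 had more reads in minimal, 36.5, 39.4 and 32.5, and 1414, 1495 and 1520 in YEPD, a log2 difference of -5.32 (SE 0.10). Of 30 listed genes of meiosis and sporulation 12 passed the filter on low values, which a gene low in minimal could pass only through YEPD, so no count is read from those. With no filter 17 of the 30 were lower and none higher, beside 1109 lower and 1124 higher of all 6370 genes then compared. The genes so added had few reads, and 3 reads would be 5.34 normalized reads in minimal and 3.04 in YEPD. That count is therefore not read as a result about these genes either. IME4, one of the 30 listed, was at 0 in all minimal libraries and had 171, 162 and 166 in YEPD. RefSeq annotates an antisense transcript over the whole of it. In bulk RNA, fewer cells expressing a gene and less of its RNA per cell cannot be told apart.

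The libraries made with ADPRC gave the medium difference a second time, from other libraries. The labels do not say whether mock and ADPRC libraries came from separate cultures, so shared signs are not read as an independent repeat. A difference in counting between media could enter both sets, which was not tested. Their minimal group held 3 libraries and their YEPD group 3, in which 1061 of the same 5457 genes (19.4%) were called. Of the 2001 genes called in mock libraries 849 were called with the enzyme too, 848 of them with the same sign. Of the 417 with over 2-fold differences in mock, 380 were called with the same sign. ZRT1 had a log2 difference of 5.36 with the enzyme against 5.01 in mock, OPI3 4.24 against 4.20, MET6 2.27 against 2.21, PHO84 -2.92 against -2.55 and AGA1 -2.48 against -2.31. The test of the difference between both contrasts called none of 5457 genes (0%) with limma and none with edgeR, and 461 had an unadjusted p under 0.05. YEPD ADPRC replicate 2 stood apart, correlating at most at 0.509 with the other two of its group, which correlated at 0.87 with each other over genes centred on their means. Without it 1044 genes were called different, and 1721 had an unadjusted p under 0.05, so the count rests on that library. The 1061 and 849 genes called with the enzyme come from the fit that includes it.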

How the data were processed

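The deposited table holds 12 columns of normalized signal, read counts that the authors divided by 1 factor per library; the submitters' processing notes name FastQC, Trimmomatic, Bowtie, HTSeq and DESeq, with no version; the sources used here state neither the genome build nor the use of strand. In each column 100% of values were whole multiples of 1 step within 0.01 reads, so whole reads were recovered for depth, edgeR and DESeq2. All columns belong to samples of the series. One of 6608 rows repeats an identifier. RefSeq's gene table (R64) matched 5919 identifiers and was used for names, lengths and overlaps only.

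The 6 mock columns were rescaled by median of ratios over the tested genes, log2(value + 1) was taken, and limma 3.58.1 (R 4.3.3) with trend and robust estimation compared 3 minimal with 3 YEPD libraries, with Benjamini-Hochberg adjustment at 0.05. On simulated data for this comparison (5457 genes, 50 changed at each fold), 15 genes were called at 1.5-fold, 40 at 2-fold, 50 at 4-fold and 50 at 8-fold, with 6 of 5257 unchanged genes called. The simulation gave every gene the same preset spread, not estimated from these libraries. It also changed far fewer genes than the 2001 called here, so its rates need not hold for the real libraries. Counting error alone is covered by the limit of 3 reads.

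Members and gene lists were chosen with earlier results of these data known. Named by rule were the 12 largest differences each way (adjusted p under 0.05, groups apart, mean of at least 50 in the higher group, no annotated overlap on the opposite strand), the 4 largest of each of 49 lists, the 10 highest per kb in each group, the deleted genes and the mating-type markers. Clear genes, pathway partners and pheromone-induced genes were added after values had been seen. In the lists, 3 spellings of fused genes were matched to RefSeq and CTR1, entered as a choline transporter by mistake, was removed from the lipid list. Planned promoter motif counts were not made, since no sequence was used here. Alternatives included edgeR 4.0.16 and DESeq2 1.42.0 on recovered reads. The result for 1 gene is not reported here.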

Additional observations from a re-analysis of the deposited data

How the results depend on the processing

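Of 272 named genes that passed the threshold, 229 kept call and sign under each of the 24 alternatives that tested them. A gene that an alternative did not test counts as kept there. That holds for genes outside the clear set when clear genes alone were tested, and for genes under a mean of 50 with that filter. Of the 272 genes 43 lost the call under 1 or more, and 2 changed sign. RPA135 was at 0.0077 with the length trend removed, and FBA1 was at -0.10 after quantile normalization. The cause of these changes was not tested. The counts of 1065 higher and 936 lower genes moved by over 1.5 times under 4 alternatives. Without rescaling they were 669 and 1949, with all 12 libraries in the model 605 and 502, at the same total the lower count was 1692, and with DESeq2 it was 617. Over 2-fold, the clear genes alone gave 69 higher genes, a mean of at least 50 gave 69 lower genes, and no filter on low values gave 415 lower genes; the first 2 test fewer genes and the third more. The clear-gene alternative was chosen after seeing the data.

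Leaving out each library in turn gave 913 to 1012 higher and 708 to 890 lower genes, and over 2-fold 201 to 225 higher and 204 to 219 lower. For the difference between the mock and ADPRC contrasts the count without YEPD ADPRC replicate 2 was 1044, against 0. Same-numbered minimal and YEPD libraries did not deviate together (r = -0.044, -0.015 and -0.0099), so the numbers were taken as names; with the replicate block 1063 genes were higher and 933 lower. For the difference between the mock and ADPRC contrasts, the replicate block was fitted on 11 libraries, leaving out the YEPD ADPRC library without a number, and called 0 genes (303 at an unadjusted p under 0.05), an alternative chosen after seeing the data. Reads outside ribosomal DNA numbered 1515824 to 1941643 in minimal, which limits genes of few reads.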
